A study of Mus musculus with 24 samples.

Results

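A set of 9 transcription factor genes that set intestinal identity and regional character was followed across mouse intestinal organoids and intestine: Cdx1, Cdx2, Hnf4a, Hnf4g, Gata4, Gata6, Pdx1, Onecut2 and Sox2. A gene was taken where a probe set named it and no other gene, and each of the 9 had 1 such probe set, so that 9 of the 30701 genes measured are described here. In build GRCm38.p6 the genes are Cdx1 (probe set TC1800001412.mm.1, chr18:61018862-61036199), Cdx2 (TC0500003624.mm.1, chr5:147300900-147307249), Hnf4a (TC0200002489.mm.1, chr2:163506811-163572907), Hnf4g (TC0300000005.mm.1, chr3:3508030-3659800), Gata4 (TC1400002217.mm.1, chr14:63198914-63271712), Gata6 (TC1800000091.mm.1, chr18:11052510-11085636), Pdx1 (TC0500001802.mm.1, chr5:147270097-147275848), Onecut2 (TC1800000662.mm.1, chr18:64340032-64398488) and Sox2 (TC0300000244.mm.1, chr3:34649995-34652461). The protein-coding gene model Gm52351 overlaps Cdx1, and noncoding genes overlap Hnf4a (Hnf4aos and Gm25881), Gata6 (Gata6os), Pdx1 (Plut) and Sox2 (Sox2ot), and the sources used here do not say whether the probes separate strands. The 24 one-colour Affymetrix arrays formed 6 groups of 4. Fetal organoids came from intestine of stage E19 and adult organoids from adult intestine, and each kind was analysed after 3 and after 30 days of culture in the standard organoid medium ENR. Intestinal tissue of newborns (P0) and of adults made up the remaining groups. The labels name no strain, no intestinal segment and no exact adult age, and they do not say whether the replicates of a group were separate animals or cultures, so every p-value measures the spread between these arrays, which may be technical. Levels are the deposited log2 values, on which a difference of 1 is a doubling, and because each gene has its own probes no gene's level was set against another's.

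CDX1 and CDX2 are homeobox factors that hold the epithelium of the intestine apart from that of the stomach and oesophagus, whose early epithelium instead carries SOX2. HNF4A and HNF4G are related nuclear receptors that bind the enhancers of absorptive genes such as those for apolipoproteins and brush border proteins. GATA4 and GATA6 are zinc finger factors of the endoderm, and GATA4 is known to be present in the proximal small intestine and to be lost towards the distal ileum, while GATA6 runs along its whole length. PDX1 marks the pancreas, antrum and duodenum, and ONECUT2 is a cut-homeobox factor of the liver, pancreas and proximal intestine.

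The upstream sequences of Cdx2 and Hnf4a are shown because both genes were called higher after the culture of fetal organoids, calls that rest on different arrays as given further on, and because Hnf4a has separate upstream and downstream start sites that its single probe set does not part. RefSeq upstream sequences were taken for 4 of the 9 genes (Cdx2, Hnf4a, Pdx1 and Sox2). Each run below holds the 250 bases before a RefSeq start, 5′ to 3′ on the strand of the gene, in build GRCm38.p6, at chr5:147307250-147307499 (minus strand) for Cdx2, chr2:163506607-163506856 (plus strand) for the upstream start of Hnf4a and chr2:163546905-163547154 (plus strand) for its downstream start.
Cdx2: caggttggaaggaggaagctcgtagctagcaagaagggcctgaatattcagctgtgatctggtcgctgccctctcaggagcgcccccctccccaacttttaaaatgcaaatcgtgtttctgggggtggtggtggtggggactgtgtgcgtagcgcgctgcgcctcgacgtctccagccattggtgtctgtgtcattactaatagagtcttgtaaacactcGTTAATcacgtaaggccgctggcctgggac
Hnf4a upstream start: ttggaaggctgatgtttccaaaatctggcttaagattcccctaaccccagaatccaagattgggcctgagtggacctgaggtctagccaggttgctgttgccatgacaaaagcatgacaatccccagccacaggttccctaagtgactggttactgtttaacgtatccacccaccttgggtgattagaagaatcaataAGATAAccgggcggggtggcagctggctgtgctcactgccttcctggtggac
Hnf4a downstream start: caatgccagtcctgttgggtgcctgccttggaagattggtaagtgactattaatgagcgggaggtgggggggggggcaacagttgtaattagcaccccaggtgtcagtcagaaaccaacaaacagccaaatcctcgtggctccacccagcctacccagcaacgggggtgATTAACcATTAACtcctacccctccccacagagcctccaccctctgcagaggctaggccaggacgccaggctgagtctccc
Capitals mark matches to 5 motifs searched on both strands. The motif of CDX factors was spelled TTTATNG. That of GATA factors, zinc finger proteins, was spelled AGATAA. The core of a site for HNF1, another factor of the gut and liver, was spelled GTTAAT. The nuclear receptor motif of HNF4 was CAAAGTNCA, and the motif of SOX factors was ACAATG. The Cdx2 run held 1 HNF1 core at position -30, counted from the start. The upstream Hnf4a run held 1 GATA match at -52, and the downstream run held 2 HNF1 cores on the opposite strand, at -81 and -74. The runs of Pdx1 and Sox2, which are not printed, held no match to any of the 5 motifs. Over the upstream runs of all 32851 RefSeq promoters, a CDX match was present in 9.81%, a GATA match in 9.99%, an HNF1 core in 6.43%, an HNF4 match in 1.19% and a SOX match in 10.69%. A match describes letters only, and no binding was measured.

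Several arrays stood apart in ways that touch these genes. Fetal day 3 replicates 2 and 3 had a mean level over 15 gastric product genes of 8.38 and 8.30, against 6.73 and 5.45 on replicates 1 and 4 and 4.09 to 6.10 on the 20 arrays of the other groups. The same 2 arrays had mean levels of 10 pancreatic genes of 7.20 and 7.26, against 6.13 and 5.20 on their partners, and of 13 mesenchymal genes of 6.62 and 6.65, against 5.86 and 6.08. Adult day 3 replicate 1 was high in mesenchymal (6.04 against 5.04 to 5.08) and pancreatic genes (5.86 against 5.01 to 5.06), and was the lowest of its group in Cdx2, Hnf4a and Hnf4g. Fetal day 3 replicate 1 had a background probe mean of 4.04, the highest of all arrays. Adult tissue replicate 1 had a mean over 10 ileal genes of 8.10, against 6.65 to 6.74 on the other adult tissue arrays, and a mean over 11 proximal small intestine genes of 8.34, against 8.95 to 9.03. Many results that rest on fetal day 3 replicates 2 and 3 or on adult tissue replicate 1 are given with and without them. Fetal day 3 replicate 1 is left out by itself only for Hnf4a and Sox2. No single result is given without adult day 3 replicate 1, which enters only the counts over fits that left out 1 array. Of the 9 genes, 7 lay above the 90th percentile of 5222 negative control probe sets on at least 23 of 24 arrays. Pdx1 lay above their median but below that percentile on all 24, and Sox2 lay below their median on 21.

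**Figure D1:**
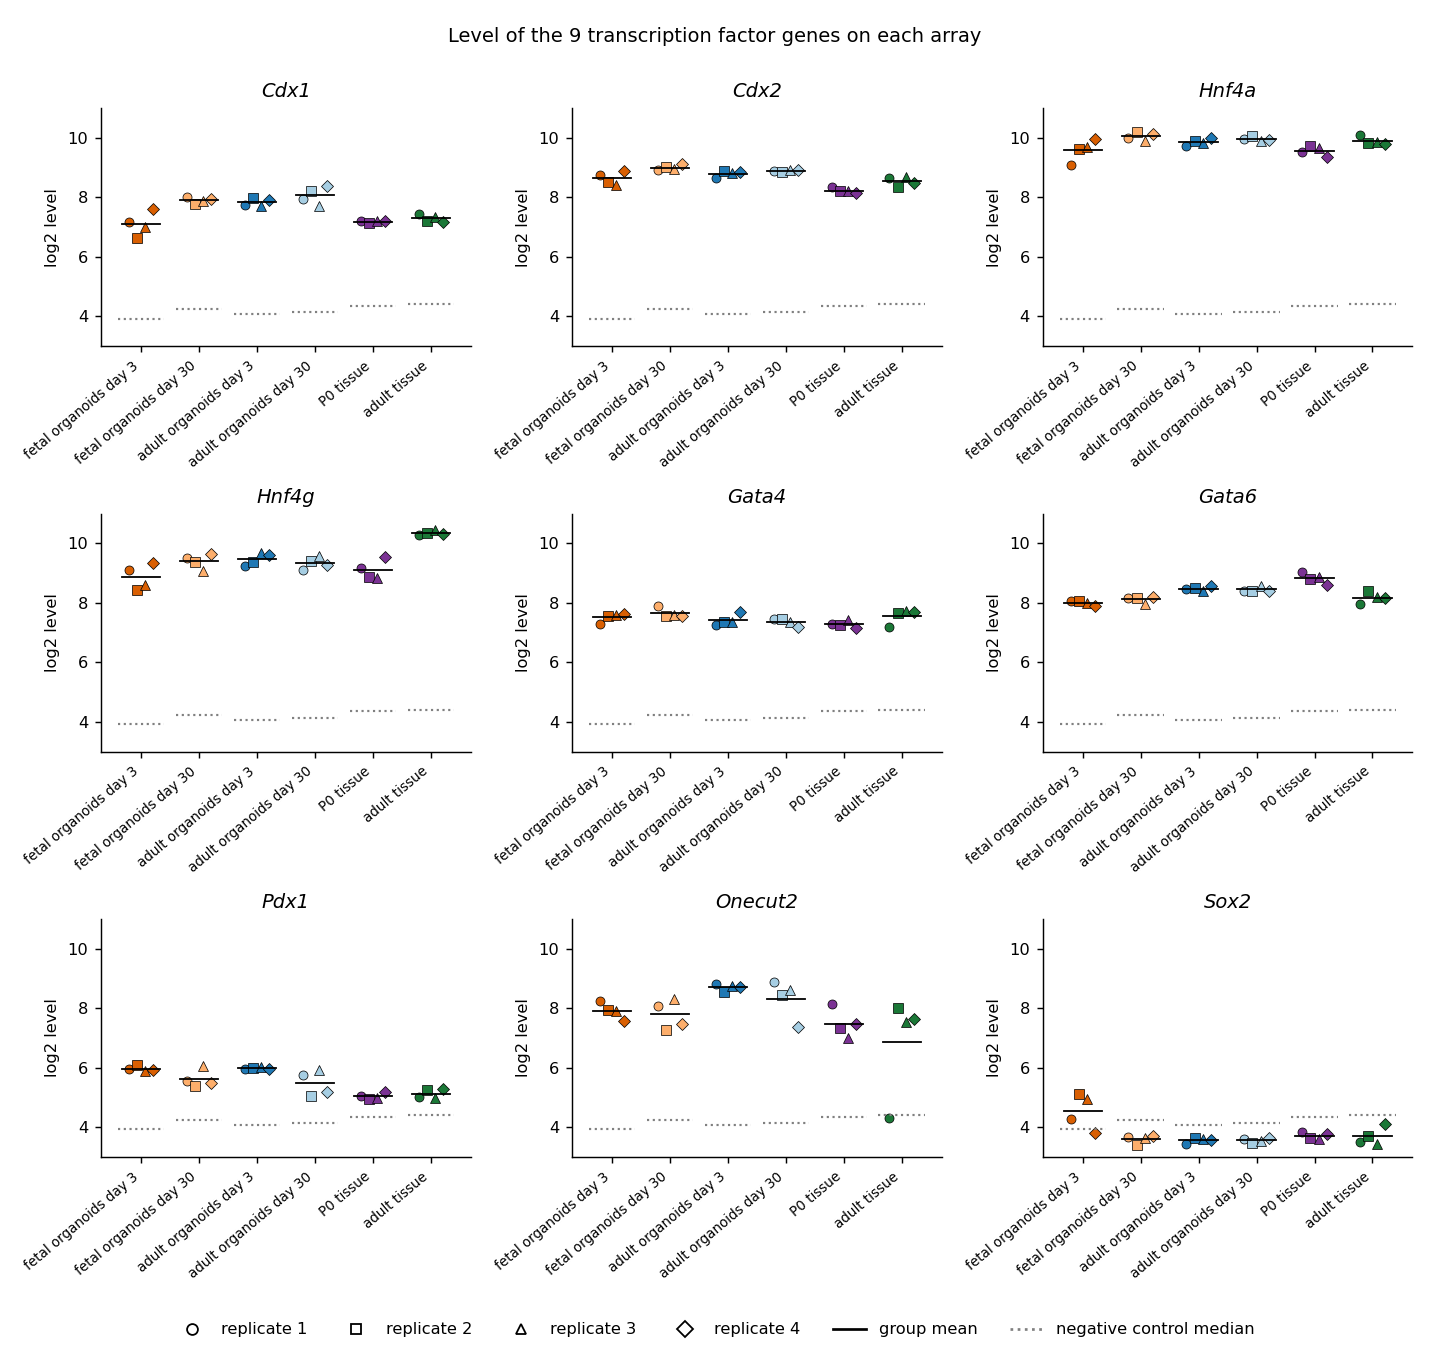
Log2 level of each gene (vertical axes) on the 24 arrays by group, with the group mean as a line, a symbol shape for each replicate and the mean of the negative control medians of a group as a dotted line. Hnf4g stands highest in adult tissue (10.27 to 10.45), Gata6 in P0 tissue (8.61 to 9.04), and Onecut2 falls to 4.31 on adult tissue replicate 1 only.

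A gene was called changed where limma's adjusted p over all 30701 genes was under 0.05. Between adult and P0 tissue 2 of the 9 rose (Hnf4g and Cdx2) and 1 fell (Gata6), against a background of 15.0% of all genes called higher, 12.2% lower and 27.1% in either direction. From day 3 to day 30 of fetal culture 4 rose (Cdx1, Cdx2, Hnf4a and Hnf4g) and 1 fell (Sox2), where 6.77% of all genes were called higher, 8.76% lower and 15.5% either way. Without fetal day 3 replicates 2 and 3 that count of 5 became 2, Cdx1 and Hnf4a. Mesenchymal genes fell in the same comparison, from a mean level over 13 genes of 6.30 to 5.09, with 12 of 13 called, and their part in these changes was not tested. In adult organoids none of the 9 was called over the same time, with 1 at an unadjusted p under 0.05, and only 0.0489% of all genes were called (0.0261% higher and 0.0228% lower). When the change of fetal organoids was tested against that of adult organoids, none of the 9 was called, although 3 had an unadjusted p under 0.05, and the background was 2.99% (1.02% higher and 1.97% lower).

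At day 3, adult organoids had 3 of the 9 called higher than fetal organoids (Cdx1, Hnf4g and Gata6) and 1 lower (Sox2), beside 14.5% of all genes higher, 10.1% lower and 24.6% in all. At day 30 only Gata6 was called between the ages, where 6.8% of all genes were called higher, 2.17% lower and 8.97% in all. Adult day 3 organoids had 5 called higher than adult tissue (Cdx1, Cdx2, Gata6, Pdx1 and Onecut2) and 1 lower (Hnf4g), among 21.9% higher, 13.5% lower and 35.4% in all. Fetal day 3 organoids had 3 called higher than P0 tissue (Cdx2, Pdx1 and Sox2) and 1 lower (Gata6), among 30.5% higher, 13.8% lower and 44.3% in all. The fetal day 3 arrays enter 4 of these 8 comparisons, so those comparisons are not independent. In the last comparison the median gene differed by 0.14, and in the other 7 the median gene differed by 0.082 or less in size.

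**Figure D2:**
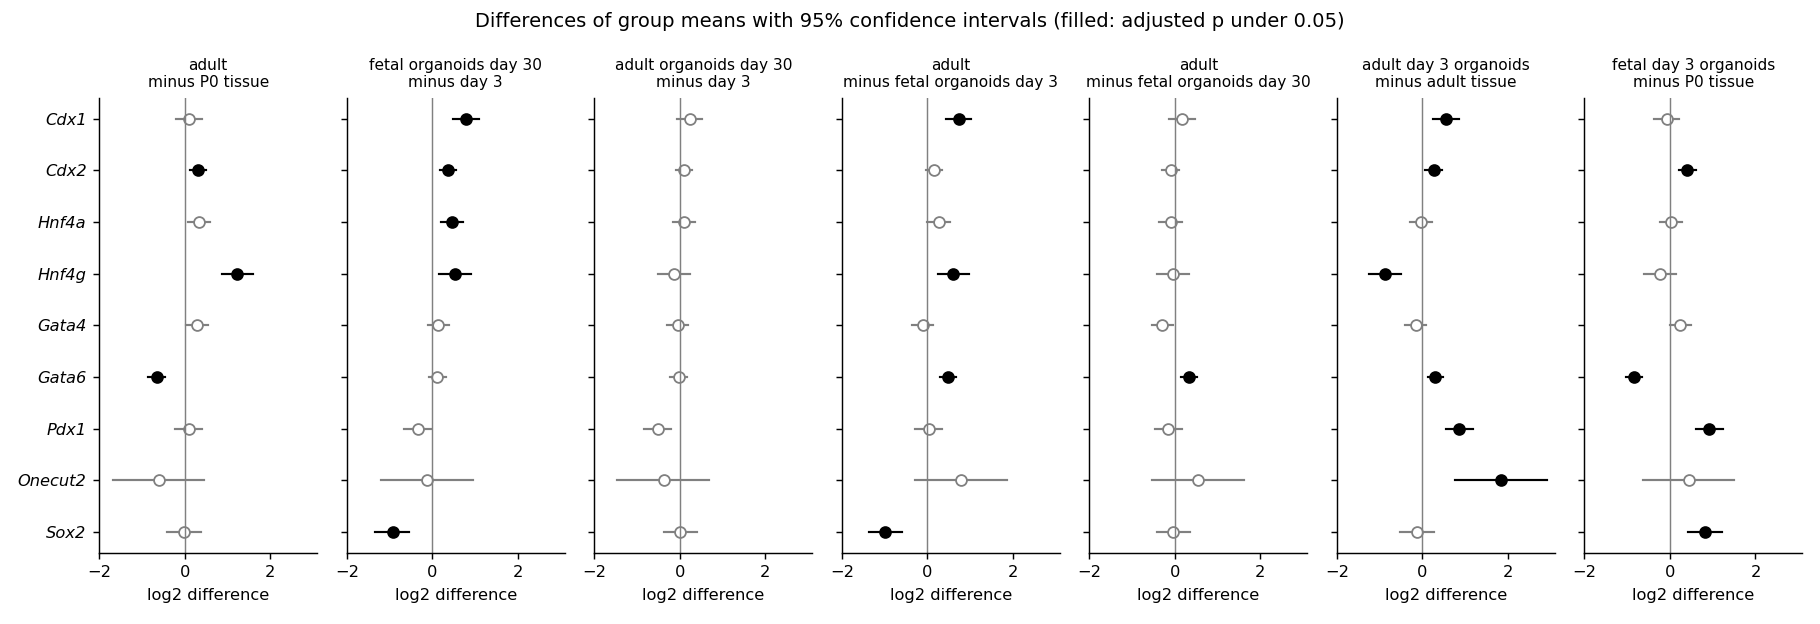
Log2 differences of group means (horizontal axes) for the 9 genes in 7 comparisons, with bars for the 95% confidence interval and filled points for an adjusted p under 0.05. Hnf4g and Gata6 move in opposite directions from P0 to adult tissue (1.23 and -0.66), and all 9 adult organoid points between day 30 and day 3 are open.

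The comparison of days 3 and 30 asks what culture does to each gene, and Cdx1 gave the largest rise of it. In fetal organoids Cdx1 measured 7.18, 6.65, 7.01 and 7.60 on day 3 (mean 7.11 ± 0.39, SD, n = 4) and 8.02, 7.78, 7.87 and 7.93 on day 30 (7.90 ± 0.10). All 4 later arrays lay above all 4 early ones, and the lowest early values were those of replicates 2 and 3. The rise was 0.79 ± 0.15 (SE, adjusted p = 0.00051), or 1.73-fold, and without those 2 arrays it was 0.51 (adjusted p = 0.026).

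In adult organoids Cdx1 was already at 7.73, 7.98, 7.72 and 7.92 on day 3 and measured 7.95, 8.20, 7.72 and 8.38 on day 30. The days overlapped, and the difference of 0.23 ± 0.15 was not called (adjusted p = 0.77). At day 3 adult organoids exceeded fetal ones by 0.73 ± 0.15 (adjusted p = 0.00066), or by 0.45 (adjusted p = 0.036) without fetal replicates 2 and 3. At day 30 the ages overlapped with a difference of 0.16 (adjusted p = 0.64, 95% interval -0.14 to 0.46). The fetal change exceeded the adult one by 0.56 ± 0.21, which was not called (adjusted p = 0.17), so a rise in fetal organoids alone was not shown.

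In tissue Cdx1 measured 7.20, 7.14, 7.20 and 7.20 in P0 and 7.45, 7.21, 7.33 and 7.17 in adult intestine. The 2 tissues overlapped and differed by 0.10 ± 0.15 (adjusted p = 0.62). Every adult day 3 organoid array lay above every adult tissue array, with a difference of 0.55 ± 0.15 (adjusted p = 0.0043) that a second quantile normalization reduced to 0.38 (adjusted p = 0.059), while fetal day 3 organoids and P0 tissue overlapped (-0.08, adjusted p = 0.68). With arrays centred on 10 pan-epithelial genes, the difference of fetal day 3 organoids from P0 tissue was -1.24 (adjusted p = 4.9e-08), that of adult from P0 tissue -0.58 (adjusted p = 0.0015) and that of adult day 3 organoids from adult tissue 0.31 (adjusted p = 0.11). Tissue is a mixture: with its mesenchyme, vessels and leukocytes included, fewer epithelial cells and less RNA per cell cannot be told apart, here or in the tissue results that follow.

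Cdx2, the other intestinal CDX factor, moved less. Its fetal organoid levels were 8.75, 8.52, 8.43 and 8.88 on day 3 and 8.93, 9.01, 8.95 and 9.11 on day 30. The days did not overlap. The rise was 0.36 ± 0.09 (adjusted p = 0.0091), and without day 3 replicates 2 and 3, which were again the lowest, it was 0.19 (adjusted p = 0.23). Fitted on the compared groups alone, the rise was not called (adjusted p = 0.087).

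Adult organoids held Cdx2 within a narrow range, at 8.64, 8.89, 8.81 and 8.84 on day 3 and 8.89, 8.84, 8.92 and 8.93 on day 30 (adjusted p = 0.89 for a difference of 0.10). The 4 organoid groups had means between 8.64 and 9.0. At day 30 the ages did not overlap, but the difference of -0.10 was not called (adjusted p = 0.65).

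P0 tissue had the lowest Cdx2 levels, 8.34, 8.22, 8.21 and 8.14, and adult tissue measured 8.66, 8.34, 8.68 and 8.48. These touched at 8.34, and the difference was 0.31 ± 0.09 (adjusted p = 0.014). It was 0.23 (adjusted p = 0.099) with arrays centred on their median and 0.26 (adjusted p = 0.051) without adult tissue replicate 3, and so was not called there. Fetal day 3 organoids exceeded P0 tissue by 0.41 ± 0.09 (adjusted p = 0.00095) with no overlap. Adult day 3 organoids exceeded adult tissue by 0.26 ± 0.09 (adjusted p = 0.032) with overlap. A second quantile normalization reduced the latter to 0.15 (adjusted p = 0.25), and its call was lost in 5 of 8 fits that left out 1 array. Pan-epithelial genes, such as those for keratins, were also lower in P0 tissue as a list. Their mean level was 9.22 there, 9.90 in adult tissue and 10.14 to 10.38 in the organoid groups. In fetal day 3 organoids 9 of the 10 were called higher than in P0 tissue. Epcam, a gene of the list, overlapped between those groups. It measured 9.77, 9.60, 9.56 and 9.69 in P0 tissue and 9.75, 9.63, 9.72 and 9.86 in fetal day 3 organoids. Values centred on the list therefore depend on which genes it holds. With arrays centred on those 10 genes, Cdx2 was lower in adult than in P0 tissue (-0.37, adjusted p = 0.0088) and lower in fetal day 3 organoids than in P0 tissue (-0.75, adjusted p = 4.7e-06). The sign of both Cdx2 differences from P0 tissue therefore turned with the scale.

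Among the HNF4 receptors, Hnf4g carried the largest change between newborn and adult intestine of the 9 genes on the deposited scale. It measured 9.16, 8.87, 8.84 and 9.55 in P0 tissue and 10.27, 10.34, 10.45 and 10.31 in adult tissue. The adult arrays lay close together, above every other array of the study. The rise was 1.23 ± 0.18 (adjusted p = 1e-05), or 2.35-fold, and with arrays centred on pan-epithelial genes it was 0.55 (adjusted p = 0.011), less than the differences of Gata6 (-1.34) and Onecut2 (-1.29) on that scale.

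Adult organoids lay below that level, with Hnf4g at 9.24, 9.36, 9.68 and 9.60 on day 3 and 9.11, 9.42, 9.58 and 9.26 on day 30. At day 3 the difference from adult tissue was -0.87 ± 0.18 (adjusted p = 0.00037), with no overlap. Day 3 and day 30 overlapped (-0.13, adjusted p = 0.96).

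In fetal organoids Hnf4g measured 9.09, 8.43, 8.59 and 9.34 on day 3 and 9.49, 9.38, 9.06 and 9.64 on day 30. The low early values were once more replicates 2 and 3, and the days overlapped. The rise was 0.53 ± 0.18 (adjusted p = 0.046), and without those 2 arrays it was 0.17 (adjusted p = 0.58). The day 3 excess of adult over fetal organoids, 0.61 ± 0.18 (adjusted p = 0.014), likewise became 0.25 (adjusted p = 0.37). At day 30 the ages differed by -0.05 (adjusted p = 0.94, 95% interval -0.42 to 0.32).

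Hnf4a varied least among the genes of the CDX and HNF4 families, with group means from 9.56 to 10.06. Fetal organoids gave 9.10, 9.61, 9.70 and 9.95 on day 3 and 9.99, 10.21, 9.90 and 10.12 on day 30. Replicate 1, the array with the high background, was the lowest early one, and the ranges met between 9.90 and 9.95. The rise was 0.46 ± 0.13 (adjusted p = 0.014), without replicates 2 and 3 it was 0.53 (adjusted p = 0.04), and without replicate 1 it was 0.30 (adjusted p = 0.058). Fitted on the compared groups alone, it was not called (adjusted p = 0.13).

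The other Hnf4a differences were not called. Adult organoids measured 9.72, 9.90, 9.84 and 9.99 on day 3 and 9.95, 10.05, 9.90 and 9.93 on day 30 (difference 0.10, adjusted p = 0.96). P0 tissue measured 9.53, 9.72, 9.66 and 9.34 and adult tissue 10.10, 9.84, 9.87 and 9.80. The tissues did not overlap, and the difference of 0.34 ± 0.13 lay just past the threshold (adjusted p = 0.052). Adult day 3 organoids and adult tissue differed by -0.04 (adjusted p = 0.86, 95% interval -0.30 to 0.22), so the deficit of Hnf4g in those organoids was not matched by one of Hnf4a, although the difference between the 2 genes was not tested.

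Gata6 moved opposite to Hnf4g between the tissues. It was highest in P0 tissue, at 9.04, 8.81, 8.86 and 8.61, and measured 7.96, 8.38, 8.18 and 8.17 in adult tissue. No arrays overlapped, and the difference was -0.66 ± 0.09 (adjusted p = 5.6e-06), a 1.58-fold lower level in the adult. Genes of mesenchyme and smooth muscle were also higher in P0 tissue, with 12 of 13 called and a mean level of 8.43 against 6.98 in adult tissue, and all 8 endothelial genes were called higher there. GATA6 is also known from smooth muscle and mesenchyme, and the part of such cells in this difference was not tested.

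In organoids, where the mean of those mesenchymal genes was 5.03 to 6.30, Gata6 parted the ages. Fetal organoids measured 8.05, 8.06, 7.98 and 7.88 on day 3 and 8.16, 8.15, 7.95 and 8.19 on day 30. Adult organoids measured 8.47, 8.49, 8.38 and 8.56 on day 3 and 8.41, 8.40, 8.57 and 8.41 on day 30. All 8 adult organoid arrays lay above all 8 fetal ones. The excess was 0.49 ± 0.09 at day 3 (adjusted p = 0.00037) and 0.33 ± 0.09 at day 30 (adjusted p = 0.022). Without fetal day 3 replicates 2 and 3 the first was 0.51 (adjusted p = 0.0043), while the second was not called without fetal day 30 replicate 3 (0.28, adjusted p = 0.09) or adult day 30 replicate 3 (0.29, adjusted p = 0.076). No change with culture was called in either age (0.12, adjusted p = 0.42, in fetal and -0.03, adjusted p = 0.98, in adult organoids by limma), and the 95% intervals of these changes were -0.07 to 0.31 and -0.22 to 0.16.

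Fetal day 3 organoids were below P0 tissue in Gata6 (-0.84 ± 0.09, adjusted p = 1.8e-07), with no overlap. With arrays centred on pan-epithelial genes this difference was -2.0 (adjusted p = 3.4e-12) and that of adult from P0 tissue -1.34 (adjusted p = 1.3e-08). Adult day 3 organoids were above adult tissue by 0.30 ± 0.09 (adjusted p = 0.01), or by 0.23 (adjusted p = 0.053) without adult tissue replicate 1, whose 7.96 was the lowest of its group. The same difference was 0.18 (adjusted p = 0.14) after a second quantile normalization. Gata6 was thus lower in the adult in whole tissue and higher in the adult in organoids.

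Gata4, whose product marks the proximal small intestine, differed little between groups, with means from 7.28 to 7.65. P0 tissue measured 7.27, 7.26, 7.42 and 7.14 and adult tissue 7.18, 7.67, 7.72 and 7.70. On 3 adult arrays Gata4 lay above all P0 arrays, while replicate 1 lay among them. The difference of 0.29 ± 0.12 was not called (adjusted p = 0.077), and without replicate 1 it was 0.42 (adjusted p = 0.0064).

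In organoids Gata4 measured 7.30, 7.56, 7.58 and 7.62 in fetal day 3, 7.90, 7.56, 7.58 and 7.56 in fetal day 30, 7.24, 7.36, 7.35 and 7.68 in adult day 3 and 7.45, 7.45, 7.36 and 7.17 in adult day 30 cultures. At day 30 the fetal arrays lay above the adult ones, by a difference of -0.29 ± 0.12 (adult minus fetal) that was not called (adjusted p = 0.15). No organoid comparison of Gata4 was called. Adult day 3 organoids against adult tissue gave -0.16 (adjusted p = 0.36), and without adult tissue replicate 1 gave -0.29 (adjusted p = 0.046).

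Onecut2 had the widest spread within groups of the 9 genes, a pooled SD of 0.81. The SD was 1.72 in adult tissue, where 1 array departed from the others, and 0.50, 0.66 and 0.48 in fetal day 30 organoids, adult day 30 organoids and P0 tissue. Adult tissue measured 4.31, 8.01, 7.52 and 7.63, and the first of these lay below the negative control median of its array. P0 tissue measured 8.14, 7.33, 6.99 and 7.46. The tissues overlapped, with a difference of -0.61 ± 0.52 (adjusted p = 0.4) that turned to 0.24 (adjusted p = 0.56) without replicate 1.

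The same adult tissue array stood out in ileal genes. Slc10a2, the ileal bile acid transporter, measured 7.18 on it and 3.42, 3.40 and 3.34 on the other 3. Fabp6, the ileal bile acid binding protein, measured 9.62 against 4.56, 4.8 and 4.55. In the reverse direction Fabp1, a fatty acid binding protein of the proximal intestine, measured 11.74 against 12.65, 12.69 and 12.55, and Apoa4 measured 9.66 against 10.51, 10.46 and 10.58. These 4 genes, and the single gastric genes named further on, were chosen after their values were seen. Onecut2 and Gata4 were thus low on the array that was high in ileal genes, and the labels do not give the segment of any sample.

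**Figure D3:**
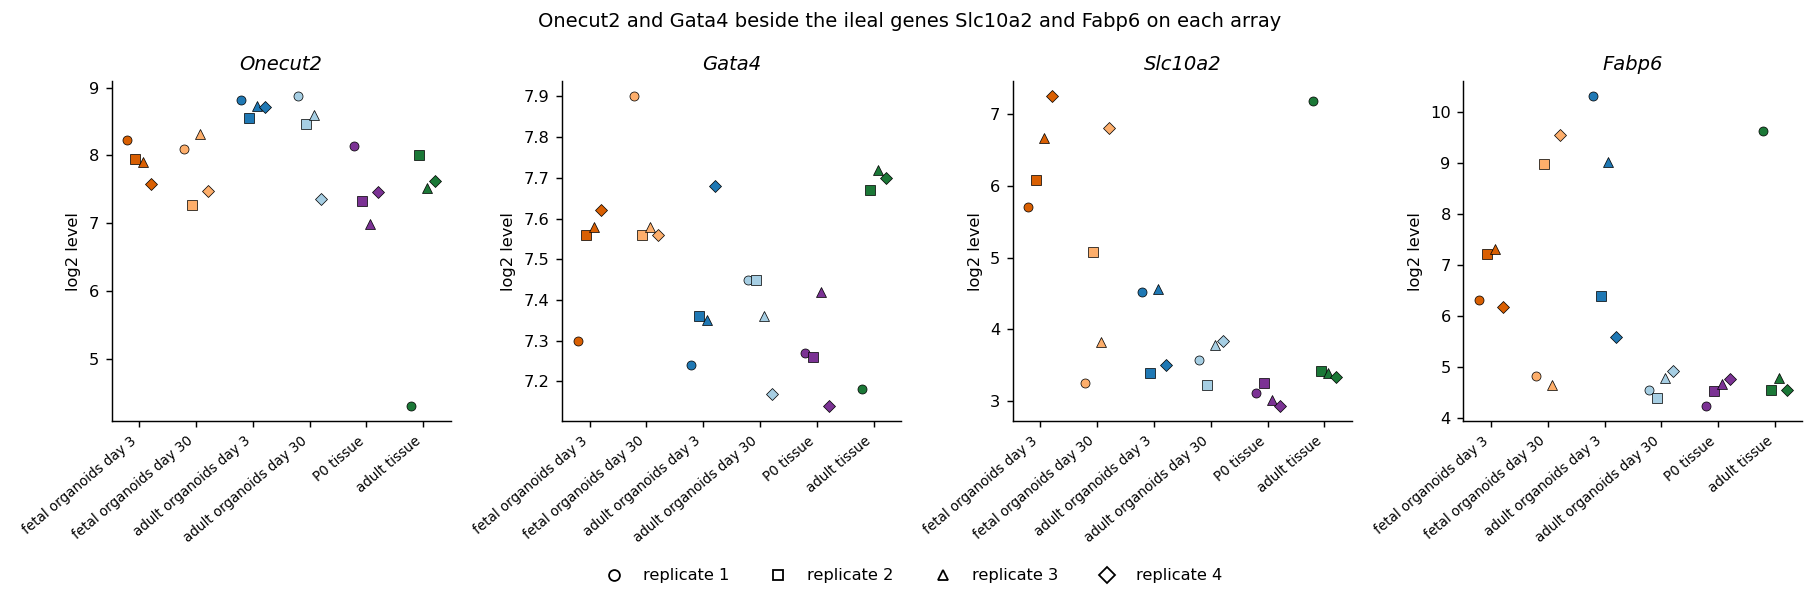
Log2 levels (vertical axes, each with its own range) of Onecut2, Gata4, Slc10a2 and Fabp6 on the 24 arrays by group, with a symbol shape for each replicate. On adult tissue replicate 1 Onecut2 (4.31) and Gata4 (7.18) are the lowest of their group while Slc10a2 (7.18) and Fabp6 (9.62) are the highest.

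Fetal day 30 organoids also differed among themselves in both kinds of gene. Onecut2 measured 8.09, 7.27, 8.32 and 7.48 on replicates 1 to 4, Fabp6 measured 4.84, 8.98, 4.66 and 9.54, and Slc10a2 measured 3.26, 5.08, 3.83 and 6.80. The 2 replicates low in Onecut2 were the 2 high in both ileal genes, with no matching split in Gata4, which was 7.56 on both. That was not so in adult day 3 organoids, where Fabp6 ran from 5.60 to 10.30 while Onecut2 stayed between 8.56 and 8.82. Adult day 30 replicate 4 had the lowest Onecut2 of the adult organoids, 7.36 against 8.87, 8.46 and 8.60, and the lowest Gata4 (7.17), with Fabp6 at 4.92 and the ileal mean at 6.45 against 5.34 to 5.88.

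Onecut2 was highest in adult day 3 organoids, at 8.82, 8.56, 8.73 and 8.72, and fetal day 3 organoids measured 8.23, 7.95, 7.91 and 7.58. These did not overlap, but with the spread pooled over all 24 arrays the difference of 0.79 ± 0.52 was not called (adjusted p = 0.31). Fitted on those 2 groups alone it was called (adjusted p = 0.0025). Against adult tissue, adult day 3 organoids were higher by 1.84 ± 0.52 (adjusted p = 0.0069, or 0.053 with those groups alone), 3.57-fold, and without adult tissue replicate 1 by 0.98 (adjusted p = 0.012). No culture change of Onecut2 was called (-0.13, adjusted p = 0.91, in fetal and -0.38, adjusted p = 0.96, in adult organoids).

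Pdx1 was low throughout but higher in day 3 organoids than in tissue. It measured 5.94, 6.09, 5.88 and 5.92 in fetal day 3 and 5.97, 5.99, 6.03 and 5.97 in adult day 3 organoids. P0 tissue measured 5.05, 4.96, 4.97 and 5.19 and adult tissue 5.0, 5.26, 4.98 and 5.27. All 8 day 3 organoid arrays lay above all 8 tissue arrays.

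The Pdx1 excess was 0.92 ± 0.15 for fetal day 3 organoids over P0 tissue (adjusted p = 5.8e-05) and 0.86 ± 0.15 for adult ones over adult tissue (adjusted p = 8.2e-05). Scaled on pan-epithelial genes the first was -0.24 (adjusted p = 0.14). The second stayed called in all 10 settings that changed the processing, that scaling among them, at 0.62 to 0.90. Beside the first, 9 of 10 pancreatic genes (median 1.18) and all 15 gastric products (median 3.63) were called higher. Beside the second, 1 of 10 pancreatic genes (median 0.25) and 3 of 15 gastric products (median 0.43) were called higher. The part of such genes' cells in either Pdx1 difference was not tested. Without fetal day 3 replicates 2 and 3 the first Pdx1 difference was 0.89 (adjusted p = 0.0017). By day 30 the values had spread, to 5.55, 5.38, 6.06 and 5.48 in fetal and 5.76, 5.05, 5.92 and 5.17 in adult organoids, of which 5.05 and 5.17 lay within the tissue range. In each age replicate 3 was the highest, near the day 3 values. The changes of -0.34 (adjusted p = 0.15) and -0.52 (adjusted p = 0.29) were not called. Without adult day 30 replicate 3 the adult change was -0.67 (adjusted p = 0.038), and without fetal day 30 replicate 3 the fetal one was -0.49 (adjusted p = 0.03).

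Fetal day 30 replicate 3 also had the highest gastric product mean of its group, 6.10 against 4.66, 4.67 and 5.35, with Tff2, a gastric trefoil peptide, at 12.42 and Nkx6-3, an antral homeobox gene, at 6.35. Their part in the Pdx1 values was not tested.

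Sox2, the foregut factor, was near background on every array. It measured 4.29, 5.11, 4.96 and 3.79 in fetal day 3 organoids, 3.67, 3.41, 3.64 and 3.69 in fetal day 30, 3.44, 3.63, 3.60 and 3.57 in adult day 3, and 3.59, 3.48, 3.55 and 3.65 in adult day 30 organoids. P0 tissue measured 3.84, 3.65, 3.60 and 3.76 and adult tissue 3.51, 3.70, 3.45 and 4.10. Only fetal day 3 replicates 1, 2 and 3 exceeded the negative control median of their arrays, and none exceeded its 90th percentile.

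The fitted Sox2 difference over fetal culture was -0.93 ± 0.19 (adjusted p = 0.0013) and that of adult minus fetal organoids at day 3 was -0.98 ± 0.19 (adjusted p = 0.0005). Because the dimmer groups lay below the control median, these are no measured folds. With the dimmer groups set to that median, the fetal day 3 mean was 1.23-fold above fetal day 30 and 1.39-fold above adult day 3 organoids. It was 1.14-fold above P0 tissue (fitted difference 0.83 ± 0.19, adjusted p = 0.0013). The fetal day 3 values themselves lay below the 90th percentile of the controls, so these ratios are no firm lower bounds. They rest on replicates 2 and 3: the other 2 arrays have a mean of 4.04, below the level used for each dimmer group. Without replicates 2 and 3 no excess over those levels is left, and without replicate 2 alone none is left against P0 tissue. Without replicates 2 and 3 the culture difference was -0.44 (adjusted p = 0.067) and the excess over P0 tissue 0.33 (adjusted p = 0.084), neither called, while adult minus fetal at day 3 was -0.48 (adjusted p = 0.029). The fetal change against the adult change was -0.94 ± 0.27 and not called (adjusted p = 0.058).

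On the fetal day 3 arrays the levels of Sox2 and stomach genes went together. Gkn1, a gastrokine of the stomach surface, measured 6.87, 10.33, 10.15 and 4.64, and the mucin gene Muc5ac measured 6.36, 9.0, 8.85 and 4.48. Replicates 2 and 3 were highest in Sox2 and in both of these, and lowest in Cdx1, Cdx2 and Hnf4g. Replicate 4, the lowest in Sox2 and both stomach genes, was the highest in Cdx1, Cdx2 and Hnf4g. Over these 4 arrays Cdx1 and Hnf4g ran in the reverse order of Sox2. Of the 15 gastric product genes, 9 fell over fetal culture with a median of -2.48 over the list, and without replicates 2 and 3 the count was 5 and the median -0.93. Of the defining stomach genes, Cblif lay below the control median in both fetal organoid groups and Gkn2 did at day 30. The part of such cells in the changes of the 9 genes was not tested beyond leaving out those arrays.

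**Figure D4:**
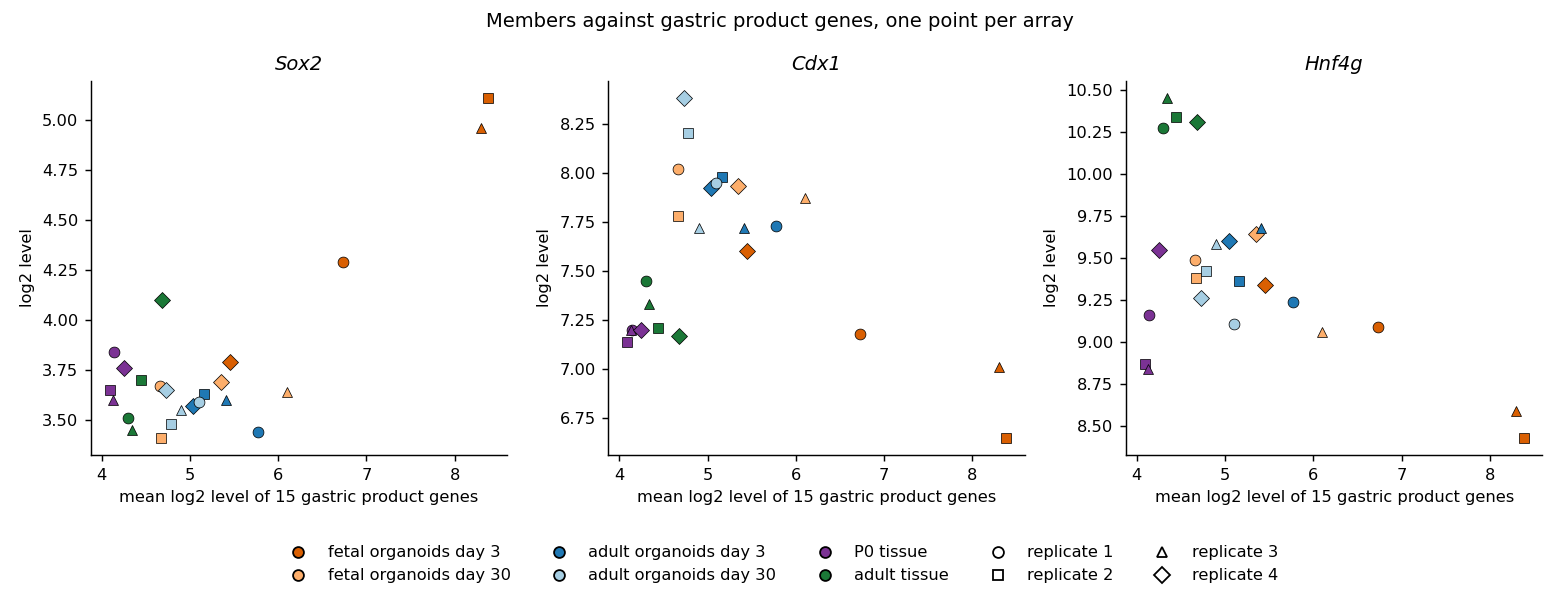
Log2 level of Sox2, Cdx1 and Hnf4g (vertical axes) against the mean log2 level of 15 gastric product genes (horizontal axis) for the 24 arrays, coloured by group with a symbol shape for each replicate. Fetal day 3 replicates 2 and 3 sit at the right (8.38 and 8.30), highest in Sox2 (5.11 and 4.96) and lowest in Cdx1 (6.65 and 7.01).

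The other transcription factors of intestinal endoderm gave a setting for these 9. Of 22 listed, 19 were measured, and 10 were called higher in adult than in P0 tissue and none lower, with a median of 0.40. Vdr, the vitamin D receptor, rose most (3.40, adjusted p = 1.9e-12), followed by Ehf, an epithelial ETS factor (1.18, adjusted p = 8.5e-06), Klf4, a factor of differentiated cells (1.16, adjusted p = 0.00084), and Tcf7l2, the Wnt effector (1.03, adjusted p = 2.3e-07). Over all genes the median was 0.082, and pan-epithelial genes shifted by 0.61 in that comparison, with 8 of 10 called higher.

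Over fetal culture 4 of the 19 rose and 2 fell, with a median of 0.16, or 3 and 1 without fetal day 3 replicates 2 and 3. Vdr went from a mean of 6.93 to 9.09 (2.17, adjusted p = 4.3e-08), still below adult organoids at day 30 (adult minus fetal 0.72, adjusted p = 0.016). Ehf rose by 0.90 (adjusted p = 0.00059) and Klf4 fell by 0.97 (adjusted p = 0.0077). Without fetal day 3 replicates 2 and 3 Klf4 was no longer called. The 3 higher were then Vdr (1.92, adjusted p = 8e-06), Ehf (1.03, adjusted p = 0.003) and Foxa2 (0.88, adjusted p = 0.00025). The 1 lower was Cdx4 (-0.42, adjusted p = 0.018), which lay below the control median in both fetal organoid groups. The fetal change of Vdr exceeded the adult change by 2.26 (adjusted p = 2e-05), the only such call of the 19 with all arrays. Foxa2 was also called without fetal day 3 replicates 2 and 3 (0.77, adjusted p = 0.022). Of the 9 factors, Cdx1 (0.73, adjusted p = 0.019) and Sox2 (-1.19, adjusted p = 0.0013) were called without fetal day 3 replicate 4. Sox2 was called too without fetal day 3 replicate 1 (-1.03, adjusted p = 0.044) and with array weights (-1.1, adjusted p = 0.0094). Cdx1 was called too with arrays centred on pan-epithelial genes (0.83, adjusted p = 0.031). At day 3 adult organoids had 6 called higher and 2 lower than fetal ones (4 and 1 without fetal day 3 replicates 2 and 3). Vdr was higher by 2.98 (adjusted p = 2.8e-10), or by 2.73 (adjusted p = 6.7e-08) without those 2 arrays. The 2 lower were Foxa1, a pioneer factor of endoderm (-1.43, adjusted p = 0.002), and Klf4 (-1.42, adjusted p = 0.00016). Without those 2 arrays only Klf4 was still called lower (-0.93, adjusted p = 0.014). In adult organoids over culture none was called. Of 10 foregut transcription factors, 3 fell over fetal culture, led by Foxq1 (-1.48, adjusted p = 0.0087), and none was called without replicates 2 and 3, while 9 were called higher in fetal day 3 organoids than in P0 tissue, with a median of 0.44. In that comparison 30.5% of all genes were called higher and the pan-epithelial median was 1.2 (9 of 10 called), and Trp63, Pax9 and Hhex lay below the control median in P0 tissue.

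Genes known to depend on each family were counted beside their regulators. The 14 absorptive genes that depend on HNF4 had a mean level of 10.41 in P0 and 10.24 in adult tissue, against 9.10 to 9.33 in the organoid groups. In adult day 3 organoids 12 of the 14 were called lower than in adult tissue and 1 higher, with a median of -1.30 beside 0.024 over all genes. Cdhr2, of the brush border, differed by -1.80 (adjusted p = 5.3e-09) and Apob, of chylomicrons, by -1.64 (adjusted p = 1e-07), while Ttr was the exception (1.81, adjusted p = 8.3e-08). In fetal day 3 organoids 13 of the 14 were called lower than in P0 tissue, with a median of -1.13, and 12 without fetal day 3 replicates 2 and 3. Neither Hnf4a nor Hnf4g was called there on the deposited scale, but centred on pan-epithelial genes both were lower (-1.13, adjusted p = 2.6e-08, and -1.40, adjusted p = 2.4e-07). The counts and medians of the 14 genes are on the deposited scale and were not centred. They are therefore not comparable with those 2 centred values. Between P0 and adult tissue, where Hnf4g rose, 3 of the 14 rose and 3 fell, led by Ttr (-3.61, adjusted p = 1.4e-12) and Slc5a1, the glucose transporter (1.46, adjusted p = 0.0002). During fetal culture 2 rose and 5 fell (1 and 5 without fetal day 3 replicates 2 and 3).

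The CDX-dependent list held 12 genes. In adult day 3 organoids Cdx1 and Cdx2 were called higher than in adult tissue on the deposited scale. Centred on pan-epithelial genes neither was called (0.31, adjusted p = 0.11, and 0.02, adjusted p = 0.92). Of the 12 genes, 9 were called lower in those organoids on the deposited scale and 1 higher, with a median of -0.74. Lct, lactase, differed by -4.34 (adjusted p = 4.8e-09) and Slc15a1, a peptide transporter, by -3.19 (adjusted p = 6.9e-09). In fetal culture, where both CDX genes were called higher (Cdx1 alone without fetal day 3 replicates 2 and 3), 2 of the 12 rose and 1 fell, with a median of -0.10 (2 and 0 without those arrays). The rise of Sis, the adult disaccharidase, from a mean of 6.69 to 11.45 (4.76, adjusted p = 3e-09) was the largest of them, and its difference from the adult change was called as well (4.78, adjusted p = 1.8e-06). Between P0 and adult tissue 6 of the 12 rose and none fell.

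**Figure D5:**
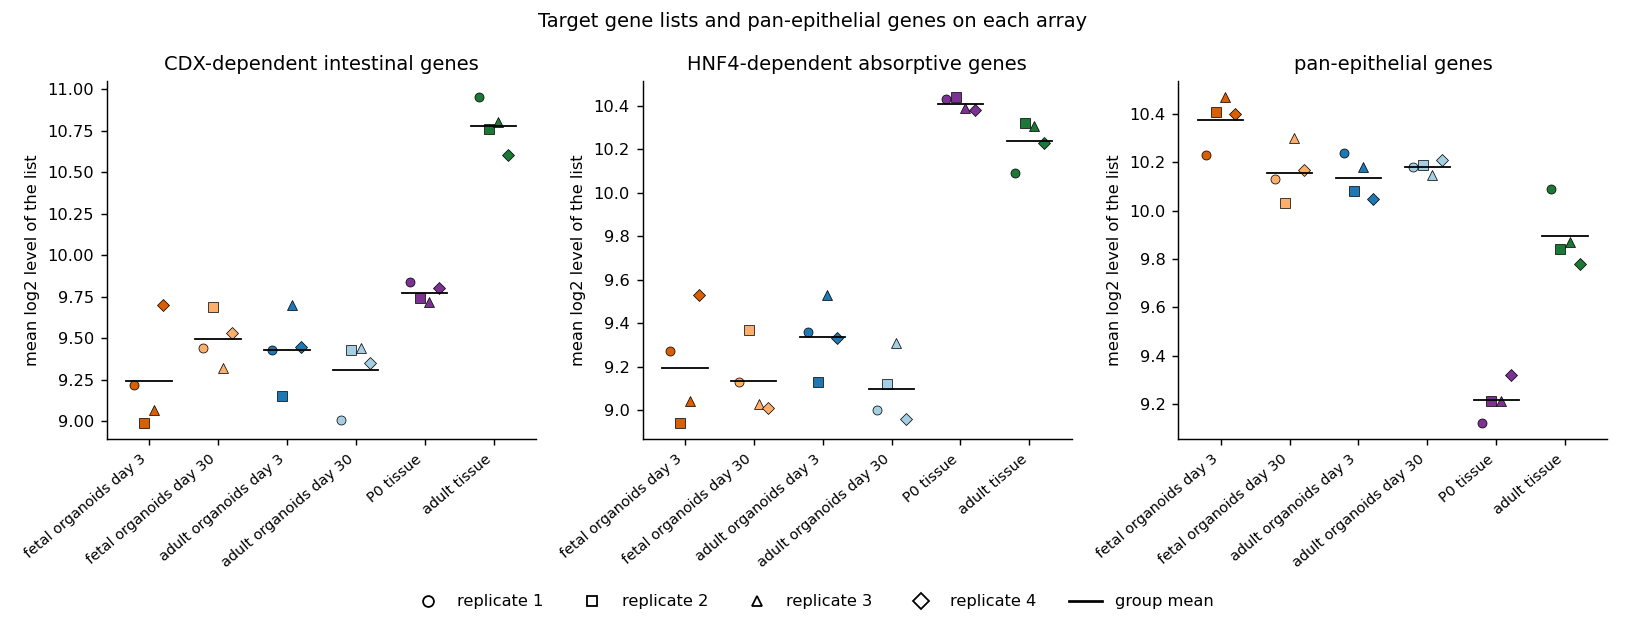
Mean log2 level (vertical axes, each with its own range) of 12 CDX-dependent, 14 HNF4-dependent and 10 pan-epithelial genes on the 24 arrays by group, with the group mean as a line. HNF4-dependent genes sit at 10.41 in P0 and 10.24 in adult tissue and at 9.10 to 9.33 in the organoid groups, and pan-epithelial genes are lowest in P0 tissue (9.22).

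Regional genes were compared as lists. Of 10 ileal genes, 6 were called lower in adult than in fetal organoids at day 3 and none higher (5 without fetal day 3 replicates 2 and 3), led by Fgf15, an enterohepatic growth factor (-3.73, adjusted p = 0.00012). Cubn and Slc10a2, among the 6, lay below the control median in adult day 3 organoids, so their differences have no measured size. Onecut2 ran the other way in those groups (0.79, not called). Of 11 proximal genes measured, 3 were called higher and 1 lower in the same comparison, with Khk, ketohexokinase, at 2.99 (adjusted p = 4.5e-11).

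The genes whose pattern over the 24 arrays was most like that of each factor were found by Pearson correlation among 12533 candidates. For Cdx1 the nearest was Kcnq1 (r = 0.95), then Smoc2 (0.933) and Tox (0.925), and for Cdx2 it was Wnt3 (0.927). For Hnf4a it was Sdha (0.876), and for Hnf4g it was Myo1a (0.933), a brush border myosin. For Gata6 it was Ap1ar (0.879), for Pdx1 Sprr1a (0.899) with Nkx6-3 at 0.863, and for Gata4 only Nomo1 at 0.723. Arrays of a group share their treatment, so these values describe 6 groups more than 24 independent points. Without fetal day 3 replicates 2 and 3 and adult tissue replicate 1, the Cdx1, Cdx2 and Hnf4g values stayed at 0.949, 0.927 and 0.911. Those of Onecut2 with Prdm16 went from 0.885 to 0.718 and of Sox2 with Gkn1 from 0.945 to 0.695, so both rested in part on those arrays.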

How the data were processed

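Total RNA of the 24 samples was extracted with Trizol and labelled as biotin cRNA, per the labels' protocols. Per the submitters' processing notes, the authors ran RMA in Affymetrix Expression Console, and what they deposited is on a log2 scale. RMA corrects background, quantile normalizes arrays and summarises probes, which pulls the overall distributions of tissue and organoid arrays together. The sources used here name no version or build and do not say which arrays were normalized jointly.

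Of 72688 probe sets, 31258 named 1 gene (1492 named several and were left out), and with the brightest probe set for the 442 genes that had several, 30701 genes were tested. Older symbols were updated for 1138 probe sets. Groups were taken from the labels' stage, tissue and day of culture. All arrays entered 1 model of 6 group means in limma 3.58.1, run in R 4.3.3. Residual degrees of freedom were 18 and the prior added 4.25. In each of 8 comparisons p was adjusted by Benjamini-Hochberg across the 30701 genes. A result was called at an adjusted p under 0.05. The fit was tested on simulated data. The members and the 17 gene lists were chosen with earlier results of these data known. The text gives all 9 members, per list the counts and up to 4 called genes of largest difference, and per member up to 3 genes most alike by Pearson correlation among genes that passed the filter on dim genes (brighter than the median of an array on 4 or more arrays). Alternatives changed the probe set rule, a filter on dim genes, the prior, the samples fitted, the scaling of arrays, the replicate block, array weights and the threshold, and left out arrays. Gene positions and upstream sequences are from RefSeq on GRCm38.p6. The number of arrays limits the precision. Annotation, summaries and figures were made in Python 3.11.15 (pandas 2.3.3, numpy 2.4.6, scipy 1.17.1, matplotlib 3.10.9).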

Additional observations from a re-analysis of the deposited data

Results flagged for a closer look

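In 54 groups of 4 arrays, one for each gene and group, 6 held an array whose gap to the nearest other took up most of the range of the group (Dixon's test at its 95% critical value). Chance flags about 1 in 20 groups. Onecut2 measured 4.31 on adult tissue replicate 1, and Gata4 measured 7.18 on the same array, both far below the other 3 arrays. Gata4 measured 7.90 on fetal day 30 replicate 1, above the others. Gata6 measured 7.95 on fetal day 30 replicate 3, below the others, and 8.57 on adult day 30 replicate 3, above them. Cdx1 measured 7.14 on P0 replicate 2, where the other 3 arrays all measured 7.20.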

How the results depend on the processing

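Of 1396 values of single genes under alternatives, 1314 were counted as unchanged, 48 were no longer called, 24 became called and 10 reversed. The 1314 kept their side of the threshold, but 30 of them, never called, changed sign. All 10 reversals came from centring arrays on pan-epithelial genes. In adult minus P0 tissue they were Cdx1 -0.58, Cdx2 -0.37, Hnf4a -0.34, Gata4 -0.39 and Pdx1 -0.60, and in fetal day 3 organoids minus P0 tissue Cdx2 -0.75, Hnf4a -1.13, Gata4 -0.92, Pdx1 -0.24 and Sox2 -0.34. That setting subtracts the pan-epithelial mean, which differed between those groups. It moved the count of called genes to 9 in adult minus P0 tissue, to 1 in the difference of culture changes and to 0 in adult minus fetal organoids at day 30. Array weights gave 5 in the tissue comparison, 1 in adult culture and 1 in the difference of culture changes. In fetal culture the count of 5 was 2 with the compared groups only, 3 at an adjusted p under 0.01 and 2 without fetal day 3 arrays 2 and 3. The single day 30 call between ages, Gata6, was lost (0 called) with median centring, a second quantile normalization and an adjusted p under 0.01. The second quantile normalization left 3 in adult day 3 organoids minus adult tissue. For the other moved counts the cause was not tested.

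Leaving out 1 array at a time gave 2 to 4 called genes between tissues, 3 to 6 in fetal culture, 0 to 1 in adult culture, 0 to 2 in the difference of culture changes, 3 to 5 between ages at day 3, 0 to 1 at day 30, 5 to 6 in adult day 3 organoids minus adult tissue and 4 in each fit of fetal day 3 organoids minus P0 tissue. Whether the replicate numbers pair the samples is not known. Same-numbered arrays deviated together (correlation over 0.1) in 8 of 60 pairs. Those pairs pool all combinations of groups, so they cannot exclude pairing between particular groups. A replicate block gave 3, 5, 0, 0, 4, 1, 6 and 4 called genes in the 8 comparisons, the same counts as without it. Sox2 fell out of the filter on dim genes and has no value there. Signal over background limits Sox2 and Pdx1.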

Other observations

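In adult organoids over culture no gene of the lists of other cell types was called by limma (2582 of all 30701 genes had an unadjusted p under 0.05). In fetal organoids over culture, 12 of 13 mesenchymal, 6 of 8 endothelial, 4 of 9 leukocyte and 2 of 7 enteric neuron and glia genes fell and none rose. Among 9 enteroendocrine genes 5 rose, led by Gip (1.47, adjusted p = 0.0021) and Chgb (1.31, adjusted p = 0.0031). Without fetal day 3 arrays 2 and 3 these counts were 7, 6, 4 and 2 lower, and for enteroendocrine genes 1 higher and 1 lower. These were Isl1 (0.91, adjusted p = 0.011) and Sct (-0.64, adjusted p = 0.0088), so neither Gip nor Chgb was called there. Of 9 colon genes 2 rose and 3 fell, of 8 squamous genes 1 rose, and none of 5 mesothelial genes was called.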
